A study of Homo sapiens with 9 samples.

Results

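The MYC and MAX network is a family of transcription factors that share a basic helix-loop-helix leucine zipper fold and bind DNA as pairs. Its 10 members examined here (MYC, MYCL, MAX, MXD1, MXD3, MXD4, MXI1, MNT, MGA and MLX) were taken by gene symbol from tables of 63241 human genes, and each was found once, under 1 Ensembl ID. They were measured in MEG-01 cells, an established human megakaryoblast line from chronic myeloid leukaemia in blast crisis, by RNA sequencing after poly(A) selection. Of 9 libraries, 3 came from control cells given neither agent, 3 from cells treated with As2S2 (arsenic disulfide) and 3 from cells treated with PMA (phorbol 12-myristate 13-acetate, which switches on protein kinase C and pushes this line towards megakaryocytes). All groups share the same line and tissue label (bone marrow), and no dose, treatment time or separate cultures are given, so the p-values set differences against the spread of these libraries alone, which could be technical.

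In this network MAX is the shared partner. MYC, MYCL and MYCN pair with MAX and activate transcription of genes for growth, ribosome production and nucleotide synthesis. MXD1, MXD3, MXD4, MXI1 and MNT also pair with MAX but recruit the SIN3 and histone deacetylase repressors to the same DNA element, the E-box. MGA pairs with MAX in a Polycomb-type repressor complex. MLX is the partner of the glucose-sensing factors MLXIP (MondoA) and MLXIPL (ChREBP), and also pairs with some MXD proteins and MNT. In blood cells MYC is high in cycling progenitors and goes down as they mature.

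Libraries held 18200501 to 20366870 counts, and 14592 genes, all 10 members among them, had enough counts to be tested. Levels are given as CPM (counts per 1000000 counts of a library, its total scaled by TMM) for 1 gene across libraries, and as the authors' TPM (per transcript length) where genes are set beside each other. On the third principal component, control replicate 2 and As2S2 replicate 1 lay away from their groups (4.61% of the variance), the former at -29.8 against 17.0 and 10.1 and the latter at 19.7 against -7.80 and -10.8. Genes of the longest 10% by effective length lay 0.133 (log2, median) below their group mean in control replicate 2 and 0.104 above it in control replicate 1. The same 1459 genes had a median log2 fold change of -0.02 with As2S2 but -0.34 with PMA, where 49.3% of them were lower. TMM places the median gene near no change. Scaling by the total count alone moved the median of all tested genes to -0.08 with As2S2 and -0.26 with PMA. Under TMM 4494 genes were called higher and 4540 lower with PMA, against 2955 and 6476 under total-count scaling; with As2S2 the split was 2962 and 2859 against 2292 and 3537. Of 15 megakaryocyte markers, ITGA2B and GATA1 among them, 7 reached a mean of 1 TPM in control, 8 with As2S2 and 11 with PMA, and their sums ran from 385 to 421 TPM, 303 to 351 TPM and 256 to 290.0 TPM in the same order. These markers moved both ways with PMA. Mean TPM went from 189.7 in control to 68.33 for ITGA2B and from 72.82 to 52.7 for GATA1. For ITGB3 it went from 11.65 to 51.5, and for PPBP from 0.41 to 7.057. Erythroid markers, mostly the globin HBG2, summed to 8085 to 8533 TPM in control, 10260 to 11080 with As2S2 and 35010 to 35910 with PMA, and their part in the results on PMA was not tested. Lymphoid markers summed to 0.58 to 1.13 TPM in control, 1.16 to 2.19 with As2S2 and 1.58 to 2 with PMA. Monocyte markers summed to 23.15 to 25.71, 23.4 to 27.92 and 23.34 to 29.1 TPM in the same order. For endothelial markers the sums were 15.65 to 20.22, 18.1 to 20.06 and 18.24 to 18.93 TPM.

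MYC was the most abundant member in every library, and it fell with both agents, further with PMA than with As2S2. MYCL, a relative expressed at a low level, fell with both too, but further with As2S2 than with PMA. The partner MAX differed little between groups in CPM, but in TPM it went from 117 ± 9.17 (SD, n = 3) in control to 92.8 ± 5.35 with As2S2 and 72.9 ± 7 with PMA. The repressors MXI1, MNT and MGA, and MLX, were lower with PMA, whereas with As2S2 MXD1 was the only repressor called. MXD4 was called higher with PMA under TMM, but not under total-count scaling or on log2 TPM.

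MYC (ENSG00000136997) reached 853, 974 and 853 CPM in control replicates 1, 2 and 3, 335, 359 and 368 CPM in the As2S2 libraries and 268, 267 and 257 CPM in the PMA libraries. The 3 groups did not overlap, with control highest and PMA lowest. MYC was 2.52-fold lower with As2S2 than in control (log2 fold change -1.34 ± 0.07, SE, n = 3 each; adjusted p = 1.21e-09, quasi-likelihood test of edgeR with Benjamini-Hochberg adjustment over all tested genes, used throughout). With PMA it was 3.38-fold lower (-1.76 ± 0.07, adjusted p = 4.12e-12). Directly compared, MYC was 1.34-fold higher with As2S2 than with PMA (0.42 ± 0.07, adjusted p = 6.91e-05). In bulk RNA, fewer cells expressing a gene and less RNA per cell cannot be told apart.

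MYCL (ENSG00000116990), which encodes L-MYC, held 186, 204 and 188.84 estimated counts in the control libraries, 25, 37 and 34 with As2S2 and 83, 81 and 113.87 with PMA. In CPM these were 8.60, 10.6 and 8.40 in control, 1.30, 1.86 and 1.78 with As2S2, and 5.12, 4.68 and 6.13 with PMA. Again no 2 groups overlapped, but here As2S2 was lowest. MYCL was 5.54-fold lower with As2S2 (-2.47 ± 0.19, adjusted p = 6.02e-08) and 1.72-fold lower with PMA (-0.78 ± 0.16, adjusted p = 0.000473). Between the agents it was 3.22-fold lower with As2S2 (-1.69 ± 0.20, adjusted p = 1.69e-06). MYC and MYCL thus took opposite orders between the agents, each beyond the spread of the libraries, and this held under each of the scalings run.

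MYCN, the third MYC family gene and no member of the 10, was close to undetected in control and with As2S2, with 6 and 8 summed counts over 3 libraries, and held 75 with PMA. The PMA libraries had 27, 21 and 27 counts and no other library had more than 5. The ratio of PMA to control was 15.2 (exact 95% interval 6.68 to 42.8, counting error only). MYCN passed the filter on low counts through the PMA libraries alone and the stricter filter left it out, so no test is given for it. For As2S2 the ratio was 1.46 (0.443 to 5.09), so no change was detectable at this depth. At 0.553 ± 0.0777 TPM (SD, n = 3) with PMA, MYCN remained far below MYC at 86.2 ± 0.919 TPM in the same cells.

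**Figure D1:**
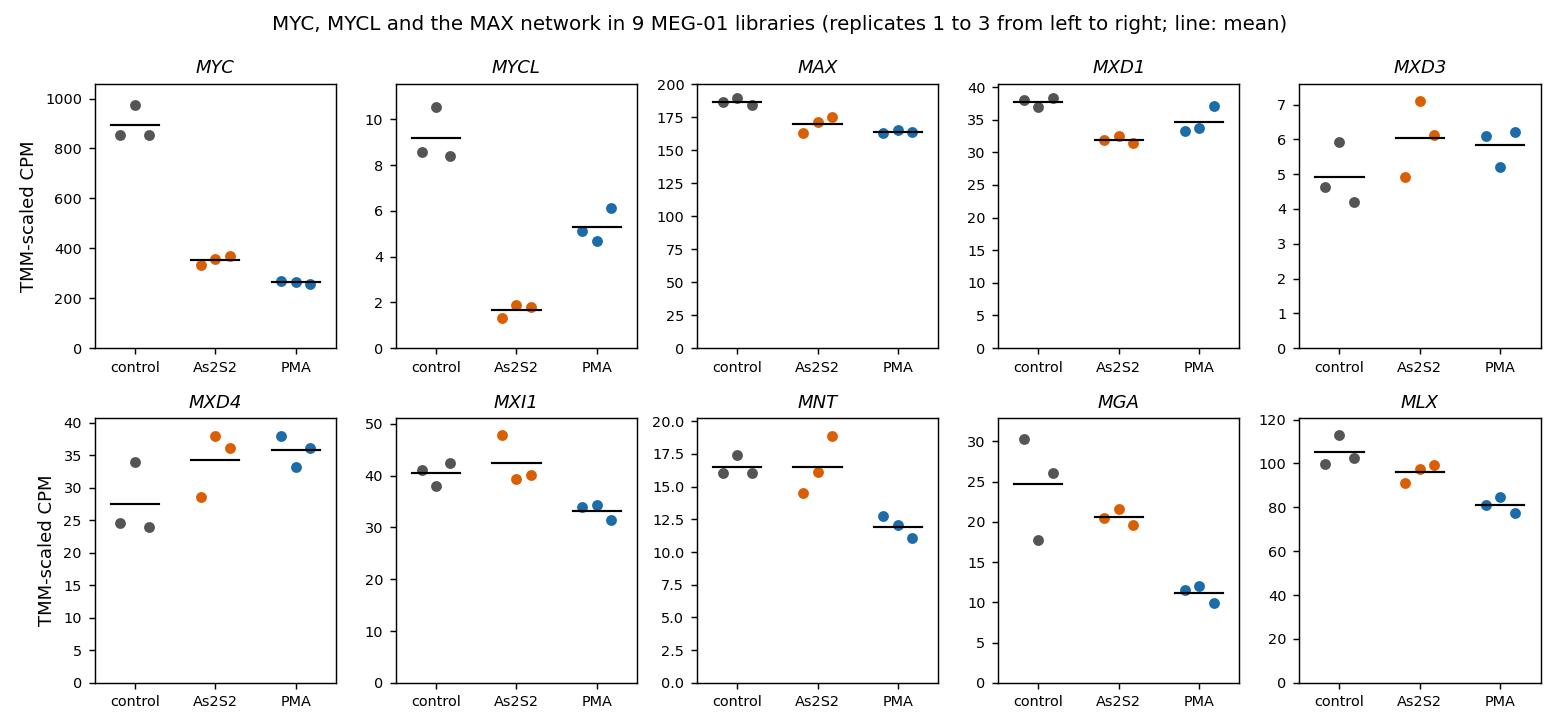
TMM-scaled CPM (vertical axis, from 0) of the 10 members in each of 9 libraries, with points for replicates 1, 2 and 3 from left to right in control (grey), As2S2 (orange) and PMA (blue) and a line at the mean of 3. MYC falls from a mean of 893 to 354 and 264 CPM, MYCL from 9.18 to 1.65 and 5.31 CPM, and MGA control replicate 2 (17.8 CPM) lies below the other controls (30.3 and 26.1 CPM).

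Of the 10 members, 0 were called higher and 3 lower with As2S2, against 20.3% higher and 19.6% lower among all tested genes, so the number called was not above the background of 39.9%. At an unadjusted p under 0.05, 1 member (MXD4) was higher and 4 were lower, and DESeq2 and limma-voom also called 0 higher. Without control replicate 2, 2 members were called higher and 4 lower, beside 3263 and 3055 of all 14592 tested genes. With PMA 1 member was called higher and 7 lower, against 30.8% and 31.1% of all tested genes (61.9% in either direction); the count of 7 was 5 without PMA replicate 3. Libraries did not overlap for 5 members with As2S2, all lower (22.7% of tested genes lower, 45.8% in either direction), and for 7 with PMA, all lower (33.7% and 67.5%). The median log2 fold change of the members was -0.13 with As2S2 and -0.33 with PMA, beside -6.77e-05 and 0.00476 over all tested genes. Between the agents 5 members were higher with As2S2 (30.9% of tested genes) and 1, MYCL, was lower (30.6%), 61.4% of tested genes being called in either direction. Libraries of the agents did not overlap for 7 members, against 67.2% of tested genes.

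**Figure D2:**
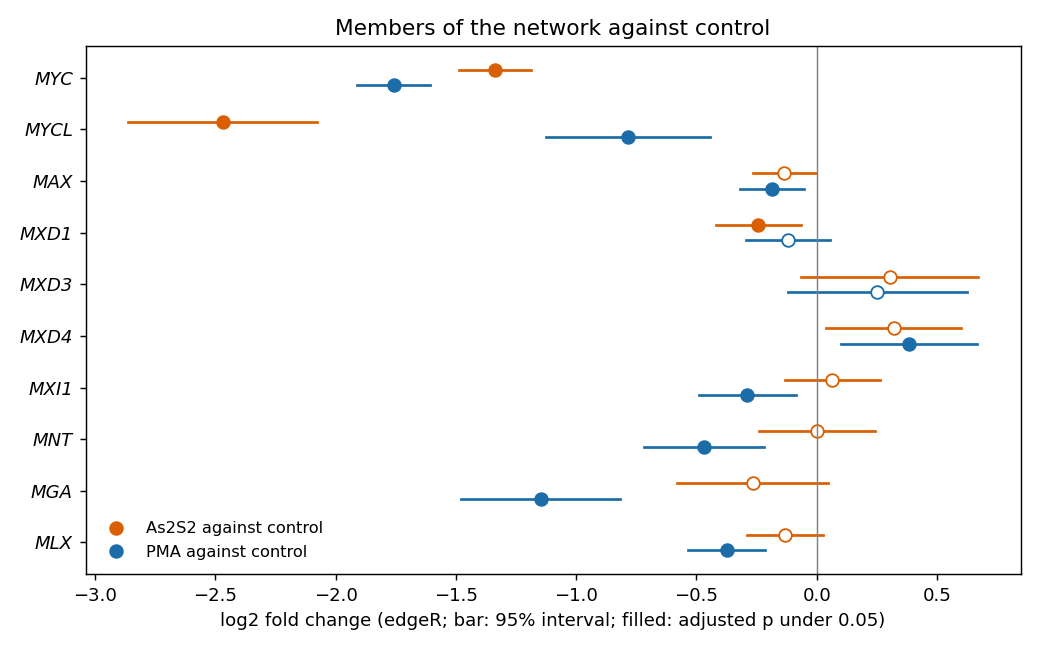
Log2 fold change against control (horizontal axis) of the 10 members, with As2S2 in orange and PMA in blue, bars for the 95% interval of the edgeR fit and filled points for an adjusted p under 0.05. With As2S2 MYCL (-2.47) and MYC (-1.34) lie farthest to the left, and with PMA the order from the left is MYC (-1.76), MGA (-1.15) and MYCL (-0.78).

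MAX (ENSG00000125952) is the partner that MYC and the MXD proteins share. Its control libraries held 186, 190 and 184 CPM, its As2S2 libraries 163, 172 and 175 and its PMA libraries 163, 166 and 164. Every treated library was below every control library, yet by little. The log2 fold change was -0.19 ± 0.06 with PMA (adjusted p = 0.0164), which no longer passed with PMA replicate 1 (adjusted p = 0.0593) or 3 (0.0520) left out. With As2S2 it was -0.13 ± 0.06 and did not pass (adjusted p = 0.0993; 95% interval -0.27 to -0.00), though it passed under total-count scaling (-0.22, adjusted p = 0.00763). Between the agents the difference was 0.05 (95% interval -0.08 to 0.18), but 0.23 under total-count scaling (adjusted p = 0.00294) and 0.35 on log2 TPM (0.00481), both of which passed. With PMA against control these scalings gave -0.45 and -0.69. MAX held whole counts in 0 of the 9 libraries, which can come from reads shared between genes, and its values are less certain than those of MYC, which held whole counts in 9.

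Set beside its partner per transcript length, MYC went from a large excess to a smaller one with As2S2, and closer still to balance with PMA. The ratio of MYC to MAX in TPM was 3.20, 3.77 and 3.16 in the control libraries, 1.59, 1.54 and 1.52 with As2S2 and 1.34, 1.10 and 1.13 with PMA. MYC made up 66.4 ± 1.64% of the summed TPM of the 10 members in control (SD, n = 3), 46.4 ± 0.217% with As2S2 and 41.3 ± 1.83% with PMA. The sum itself was 593 ± 7.15 TPM in control, 310 ± 11.9 with As2S2 and 209 ± 8.09 with PMA. Repressor transcripts (MXD1, MXD3, MXD4, MXI1, MNT and MGA together) came to 38.2 ± 2.03 TPM in control, 37.4 ± 0.458 with As2S2 and 25.5 ± 0.959 with PMA. MYC therefore stood at 10.3 ± 0.763 times their sum in control, 3.85 ± 0.169 times with As2S2 and 3.39 ± 0.129 times with PMA. These are descriptions of RNA levels with no test, and say nothing of protein. Sums in TPM carry the shift of the whole table on that scale, where the median tested gene lay at -0.10 (log2) with As2S2 and -0.40 with PMA.

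The order of the levels was MYC, MAX, MLX and MXI1 in each group, and the libraries of these neighbours did not overlap. In control MXI1 stood at 16.2 TPM, MXD4 at 6.28 and MXD1 at 5.92, and the ranges of MXD4 (5.63 to 7.56 TPM) and MXD1 (5.28 to 6.36 TPM) overlapped. MXD3, MNT, MGA and MYCL followed at 3.76, 3.26, 2.75 and 2.67 TPM, with each overlapping the next. With As2S2 MYCL was last at 0.440 TPM, below every library of MGA (1.88 to 2.26 TPM). With PMA MYCL (0.900 to 1.31 TPM) and MGA (0.890 to 1.06 TPM) overlapped at the bottom.

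**Figure D3:**
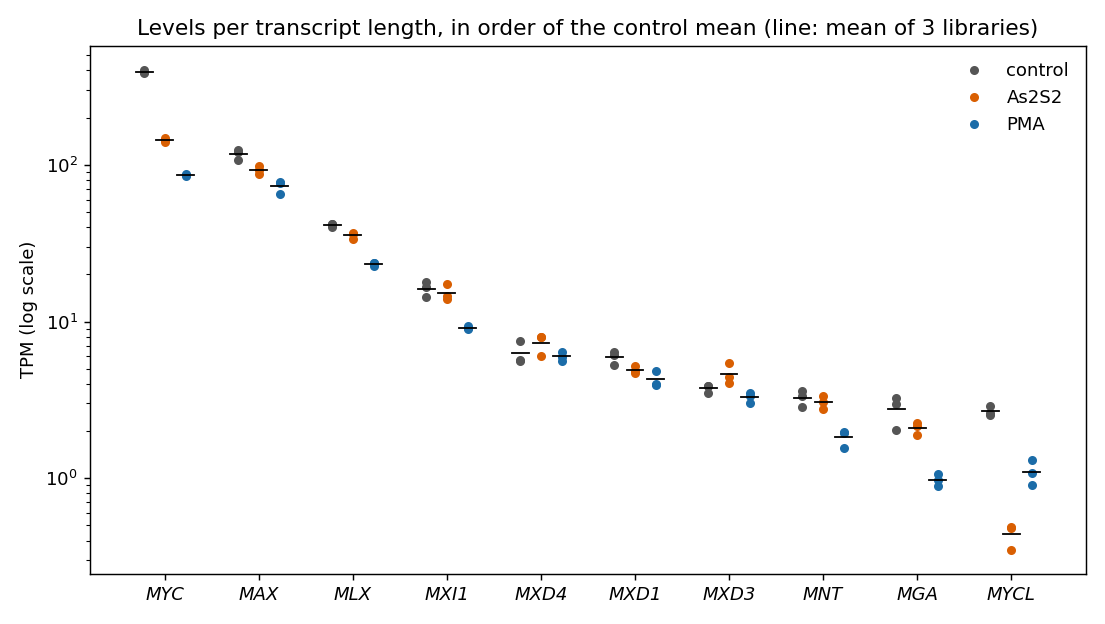
TPM on a log axis (vertical) of each member in the 9 libraries, ordered by the control mean, with control in grey, As2S2 in orange, PMA in blue and a line at the mean of 3. MYC spans 394 to 86.2 TPM between the control and PMA means and comes close to MAX (72.9 TPM) with PMA, and MYCL drops to 0.440 TPM with As2S2.

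Among the repressors, MXD1 (ENSG00000059728), induced in many maturing blood cells, had 38.0, 37.0 and 38.3 CPM in the 3 controls, 31.9, 32.5 and 31.4 after As2S2 and 33.3, 33.8 and 37.1 after PMA. It was lower with As2S2 (-0.24 ± 0.08, adjusted p = 0.0286), which no longer passed with control replicate 1 or 3 or As2S2 replicate 2 or 3 left out (adjusted p 0.0629 to 0.0883) or with no filter on low counts (0.0703). With PMA the value was -0.12 ± 0.08 (adjusted p = 0.219), but it passed as lower under total-count scaling (-0.38, adjusted p = 0.00133) and on log2 TPM (-0.46, 0.00871). MXD3 (ENSG00000213347), linked to cycling cells, overlapped between all groups at 4.21 to 7.10 CPM. Its log2 fold changes were 0.30 ± 0.17 with As2S2 (adjusted p = 0.178) and 0.25 ± 0.18 with PMA (0.225). The former passed without control replicate 2 (0.45, adjusted p = 0.0452). MXD3 shares 17.97% of its annotated exon bases with RAB24 on the same strand and 22.5% with PRELID1 on the other, and held whole counts in 0 libraries, so its level is uncertain.

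MXD4 (ENSG00000123933) measured 24.5, 34.0 and 24.0 CPM without treatment, 28.6, 38.0 and 36.2 after As2S2 and 38.1, 33.3 and 36.2 after PMA. Control replicate 2 lay within the treated range, so the groups overlapped. The log2 fold change was 0.39 ± 0.13 with PMA (adjusted p = 0.0193), but 0.13 under total-count scaling (adjusted p = 0.381) and -0.0555 on log2 TPM (0.768). The median of all tested genes on log2 TPM was itself -0.40 with PMA. The PMA call was also lost without control replicate 1 or 3 or PMA replicate 1 or 3 (adjusted p 0.0519 to 0.0935). With As2S2 it was 0.32 ± 0.13 and did not pass (adjusted p = 0.0663), but passed when control replicate 2 was left out (0.50, adjusted p = 0.00125), or As2S2 replicate 1 (0.43, 0.0157).

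MXI1 (ENSG00000119950), a repressor of the MXD family, had 41.0, 38.0 and 42.4 CPM in the 3 controls, 47.8, 39.3 and 40.1 after As2S2 and 33.9, 34.3 and 31.4 after PMA. All PMA libraries lay below all others. MXI1 was lower with PMA than in control (-0.29 ± 0.09, adjusted p = 0.0148), which no longer passed when control replicate 3 (0.0616) or PMA replicate 3 (0.0709) was left out. It was also lower with PMA than with As2S2, which was 1.28-fold higher (0.35 ± 0.10, adjusted p = 0.00413). Against control As2S2 gave 0.07 ± 0.09 (adjusted p = 0.615; 95% interval -0.13 to 0.26).

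MNT (ENSG00000070444), the repressor present in most cell types, measured 16.1, 17.4 and 16.01 CPM without treatment, 14.5, 16.1 and 18.9 after As2S2 and 12.7, 12.1 and 11.04 after PMA. It was 1.38-fold lower with PMA than in control (-0.47 ± 0.12, adjusted p = 0.00247), and PMA was below every other library. Against control, As2S2 did not pass, with a 95% interval of the log2 fold change of -0.24 to 0.24. MNT held whole counts in 0 libraries and shares 12.2% of its exon bases with an annotated antisense gene.

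MGA (ENSG00000174197) had 30.3, 17.8 and 26.1 CPM in the 3 controls, 20.5, 21.6 and 19.7 after As2S2 and 11.5, 12.1 and 9.96 after PMA. The PMA libraries were lowest, and MGA was 2.21-fold lower with PMA than in control (-1.15 ± 0.16, adjusted p = 8.52e-06) and 1.84-fold higher with As2S2 than with PMA (0.88 ± 0.16, adjusted p = 0.000146). Against control As2S2 gave -0.27 ± 0.15 and did not pass (adjusted p = 0.167), but it passed without control replicate 2 (-0.45, adjusted p = 0.00181). MGA has a longer effective length than 97.2% of tested genes. Long genes were low in control replicate 2 and with PMA, as given above, and the part of length in these values was not tested.

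MLX (ENSG00000108788) measured 99.6, 113 and 103 CPM without treatment, 91.3, 97.3 and 99.1 after As2S2 and 81.0, 84.8 and 77.3 after PMA. The 3 groups did not overlap. MLX was 1.30-fold lower with PMA (-0.37 ± 0.07, adjusted p = 0.000381) and 1.18-fold higher with As2S2 than with PMA (0.24 ± 0.08, adjusted p = 0.0102), the latter lost without PMA replicate 3 (0.0573). With As2S2 against control it was -0.13 ± 0.07 (adjusted p = 0.172), which passed under total-count scaling (-0.21, 0.0165). MLX shares 18.1% of its exon bases with PSMC3IP on the other strand and held whole counts in 0 libraries.

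The partner MLXIP, which carries glucose sensing to MLX, moved apart between the agents. It had 58.3, 62.0 and 51.7 CPM in the 3 controls, 66.3, 74.6 and 73.5 after As2S2 and 44.5, 40.6 and 43.3 after PMA, and the 3 groups did not overlap. It rose with As2S2 (0.32 ± 0.09, adjusted p = 0.00741), which no longer passed when control replicate 3 was left out (0.25, adjusted p = 0.0527) or on log2 TPM (0.28, 0.0676). It fell with PMA (-0.42 ± 0.09, adjusted p = 0.000541). MLXIP has a longer effective length than 97.2% of tested genes, and such genes were low with PMA as given above. The other partner, MLXIPL, had 6, 5 and 14 summed counts in control, As2S2 and PMA and was not tested. Of the targets of MLX complexes, ARRDC4 went up from 67.9 ± 3.46 CPM in control to 94.2 ± 12.8 with As2S2 (0.47 ± 0.09, adjusted p = 0.000583). TXNIP, at 851 ± 13.8 CPM in control and 783 ± 34.7 with As2S2, did not pass (-0.12 ± 0.06, adjusted p = 0.140), though it passed without As2S2 replicate 1 (-0.15, adjusted p = 0.0380). With PMA, where MLXIP fell, ARRDC4 stood at 78.3 ± 2.38 CPM and did not pass (0.21 ± 0.09, adjusted p = 0.058). TXNIP did not pass with PMA either (-0.10 ± 0.06, adjusted p = 0.163).

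The E-box that these dimers bind reads CACGTG, which is the same on both strands. In RefSeq promoter windows (GRCh38.p14, the 250 bases before each annotated start), 9 of the 10 members had an entry, and 3 of them held the motif: MXD4, MNT and MLX. A share of 7.73% of all 27305 genes with an entry held it in a window of the same length. The windows of these 3 are shown, 5′ to 3′ on the gene's strand with the motif in capitals, because they show the network's own element in the promoters of its members; MNT and MLX fell with PMA, and MXD4 did not.
MLX, chr17:42566850-42567099, plus strand: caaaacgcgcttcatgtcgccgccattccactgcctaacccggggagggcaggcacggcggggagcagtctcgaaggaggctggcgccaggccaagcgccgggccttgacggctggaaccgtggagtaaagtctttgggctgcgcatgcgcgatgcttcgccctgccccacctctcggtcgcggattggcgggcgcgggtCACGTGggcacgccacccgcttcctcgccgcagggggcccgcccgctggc
MNT, chr17:2401061-2401310, minus strand: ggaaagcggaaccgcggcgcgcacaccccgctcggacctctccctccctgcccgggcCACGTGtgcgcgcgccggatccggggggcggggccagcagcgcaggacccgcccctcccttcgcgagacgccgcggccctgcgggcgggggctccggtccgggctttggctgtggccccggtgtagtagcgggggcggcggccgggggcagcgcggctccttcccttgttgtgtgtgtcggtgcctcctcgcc
MXD4, chr4:2262110-2262359, minus strand: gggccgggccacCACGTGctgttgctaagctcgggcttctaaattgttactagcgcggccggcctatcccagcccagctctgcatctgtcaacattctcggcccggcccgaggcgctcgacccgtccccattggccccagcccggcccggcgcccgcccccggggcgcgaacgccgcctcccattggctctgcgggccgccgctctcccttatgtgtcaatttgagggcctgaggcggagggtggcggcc
The motif starts 50 bases before the start of MLX, 193 before that of MNT and 238 before that of MXD4. The windows of MYCL, MAX, MXD1, MXD3, MXI1 and MGA held no such letters. Of these, MYCL, MAX, MXI1 and MGA were called lower with PMA too, and MXD1 and MXD3 were not called. A match describes the sequence only; no binding was measured.

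Genes around the network were followed as fixed lists, which were chosen with earlier results of these data known. Their counts and shares describe these genes and are no test of an excess over all tested genes. Among all tested genes 20.3% rose and 19.6% fell with As2S2, and 30.8% and 31.1% with PMA. Of these 14592 genes 3755 rose and 3708 fell with As2S2 when control replicate 2 and As2S2 replicate 1 were left out. Under total-count scaling 2292 rose and 3537 fell with As2S2, and 2955 and 6476 with PMA. On log2 TPM 1667 rose and 2990 fell with As2S2. Among 23 tested cofactors, partners and related genes, 7 rose and 3 fell with As2S2 (30.4% and 13.0%). With PMA 2 rose and 14 fell (8.70% and 60.9%). The 2 take in MYCN, whose call is not relied on, since it passed the filter through the PMA libraries alone. Under the stricter filter, which left MYCN out, 3 of 22 genes rose and 14 fell with PMA. The As2S2 counts became 6 and 6 under total-count scaling and 4 and 6 on log2 TPM. RUVBL1, a chromatin ATPase bound by MYC, went from 113 ± 5.10 to 71.2 ± 1.15 CPM with As2S2 (-0.67 ± 0.07, adjusted p = 2.20e-06). HCFC1, a scaffold that MYC also binds, rose with As2S2 (0.59 ± 0.09, adjusted p = 7.68e-05) and fell with PMA (-0.65 ± 0.09, adjusted p = 1.26e-05). TRRAP, the acetyltransferase scaffold recruited by MYC, fell with PMA (-1.07 ± 0.09, adjusted p = 4.65e-08), as did EP400 (-1.27). TRRAP and EP400 have longer effective lengths than 91.6% and 92.0% of tested genes. The As2S2 counts of this list were 8 higher and 7 lower without the 2 outlying libraries, and its median turned from -0.03 to 0.04.

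Of 24 genes that control MYC transcription or protein stability, 4 rose and 4 fell with As2S2 (16.7% each, below the shares of all tested genes), and 3 rose and 11 fell with PMA (12.5% and 45.8%). PIM1 and PIM2, kinases that stabilise MYC, differed. PIM1 fell with both, from 1763 ± 101 CPM in control to 1418 ± 108 with As2S2 (-0.31 ± 0.07, adjusted p = 0.00204) and, with PMA, by 3.45-fold (-1.79 ± 0.07, adjusted p = 3.89e-12). PIM2 rose with As2S2 (0.83 ± 0.09, adjusted p = 2.15e-06) and fell with PMA (-1.05 ± 0.09, adjusted p = 4.06e-08). HUWE1, a ubiquitin ligase of MYC, fell with PMA (-1.29) and had an effective length above 95.4% of tested genes. Under total-count scaling the PMA counts of this list were 1 higher and 16 lower, beside 2955 and 6476 of all 14592 tested genes. Without both libraries that stood apart, its As2S2 counts were 8 and 8, beside 3755 higher and 3708 lower among all tested genes.

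Among genes known to be activated by MYC more fell than rose with both agents. Of 74 such genes, all tested, 10 rose, 34 fell and 30 did not pass with As2S2, and their median log2 fold change was -0.22. The share that fell was 45.9%, beside 19.6% of all tested genes. With PMA 10 rose, 55 fell and 9 did not pass, with a median of -0.55 and a share of 74.3% that fell, beside 31.1%. Without both libraries that stood apart 16 rose and 36 fell with As2S2, with a median of -0.13. In that setting 3755 of all 14592 tested genes rose and 3708 fell. Under total-count scaling 5 rose and 64 fell with PMA, with a median of -0.81, beside 2955 and 6476 of all tested genes. Of 62 of these genes with a promoter entry, 30.6% held CACGTG in the same 250 bases, beside 7.73% of all 27305 genes with an entry and 2 of 10 genes (20.0%) known to be repressed by MYC. The 27305 genes were not limited to those tested here, so these shares describe sequences only.

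Nucleotide and polyamine enzymes fell in 7 of 15 cases with As2S2 (46.7%) and 14 of 15 with PMA (93.3%), and 0 rose at an adjusted p under 0.05 with either; without control replicate 2, 2 rose with As2S2. PPAT, the first enzyme of purine synthesis, went from 24.6 ± 4.38 to 14.0 ± 1.80 CPM with As2S2 (-0.82 ± 0.14, adjusted p = 0.000183). CAD, which opens pyrimidine synthesis, fell by 1.28-fold with As2S2 (-0.35 ± 0.09, adjusted p = 0.00422) and by 2.90-fold with PMA (-1.54 ± 0.09, adjusted p = 4.70e-10). Nucleolar and translation genes fell in 14 of 26 cases with As2S2 (53.8%) and 21 of 26 with PMA (80.8%), while 1 and 2 rose. Nucleolin, NCL, went from 1068 ± 82.2 CPM in control to 677 ± 53.4 with As2S2, and PMA gave -0.84 ± 0.08 (adjusted p = 8.82e-08). POLR1B, a subunit of RNA polymerase I, changed by a like size with both (-0.72 ± 0.09 and -0.64 ± 0.09).

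With As2S2 6 of 13 cell cycle genes of the list rose (46.2%) and 3 fell (23.1%; median -0.01, and 0.16 without the 2 outlying libraries), and with PMA 2 rose and 10 fell (15.4% and 76.9%, median -0.66). PLK1, CKS2 and MCM4 rose with As2S2. With PMA PLK1 fell, CKS2 rose (1.08 ± 0.07, adjusted p = 9.92e-10) and MCM4 did not pass (0.02 ± 0.07, adjusted p = 0.770). In the direct comparison of the agents 10 of the 13 were higher with As2S2 and 2 were lower (76.9% and 15.4%). Among all tested genes these shares were 30.9% and 30.6%. Total-count scaling gave 5 higher and 5 lower with As2S2. The mitotic kinase PLK1 went from 130 ± 10.3 to 214 ± 18.9 CPM with As2S2 (0.72 ± 0.08, adjusted p = 3.84e-06) and fell by 2.97-fold with PMA (adjusted p = 1.50e-10). The D-type cyclin CCND2 fell with both, by 1.30-fold and 2.18-fold. MCM7, a subunit of the replicative helicase, fell by 2.45-fold with As2S2 and 1.98-fold with PMA. Metabolic, mitochondrial and transport genes fell in 10 of 20 cases and rose in 3 with As2S2 (50% and 15%; 6 and 3 without As2S2 replicate 2), and fell in 10 and rose in 6 with PMA (50% and 30%, the latter near the share of all tested genes; 14 and 3 under total-count scaling). Hexokinase 2, HK2, fell by 2.19-fold with As2S2 and 3.19-fold with PMA. The amino acid transporter SLC7A5 fell by 8.95-fold with PMA (adjusted p = 3.30e-13), and with As2S2 gave -0.17 ± 0.09 (adjusted p = 0.154).

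Among genes known to be repressed by MYC more rose than fell with both agents. Of 15 tested, 10 rose and 4 fell with As2S2 (66.7% and 26.7%, median 0.80). With PMA 12 rose and 1 fell (80% and 6.67%, median 1.24). Among all tested genes 20.3% rose and 19.6% fell with As2S2, and 30.8% and 31.1% with PMA. With As2S2 the share of the list that fell was thus above that of all tested genes too. CDKN1A, which encodes the cell cycle inhibitor p21, measured 26.2, 36.2 and 28.7 CPM without treatment, 63.0, 75.1 and 73.5 after As2S2 and 220, 210 and 221 after PMA. The groups did not overlap, with log2 fold changes of 1.22 ± 0.11 (adjusted p = 2.61e-07) and 2.84 ± 0.11 (1.62e-12). CDKN2B, the inhibitor p15, went in opposite directions, 2.57-fold lower with As2S2 (-1.36 ± 0.11, adjusted p = 9.68e-08) and 2.70-fold higher with PMA (1.43 ± 0.10, adjusted p = 2.62e-09). It was lower with As2S2 than with PMA by a test of that difference (-2.80, adjusted p = 2.12e-12). The 4 that fell with As2S2 were 2 without control replicate 1, control replicate 3 or As2S2 replicate 2.

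**Figure D4:**
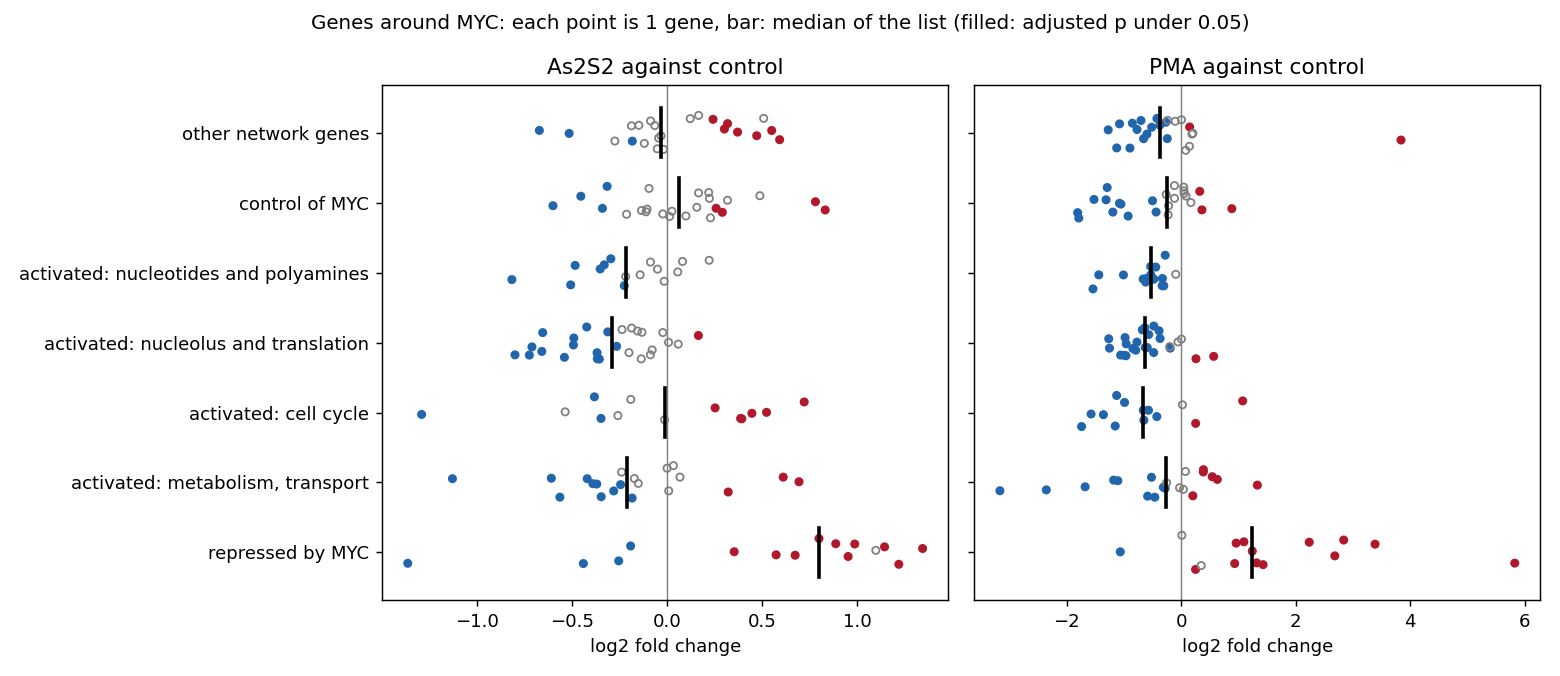
Log2 fold change (horizontal axes, which differ in range) of the genes of each fixed list, with As2S2 on the left and PMA on the right; each point is a gene, filled where the adjusted p was under 0.05 (red higher, blue lower), and the bar is the median. The medians of the activated lists lie at or below 0 (-0.29 to -0.01 with As2S2, -0.66 to -0.26 with PMA) and that of the repressed list above 0 (0.80 and 1.24).

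Among the 5 genes whose log2 CPM followed MYC most closely over the 9 libraries, out of 9735 compared, were RABEPK (Pearson r = 0.996), FAM78A (0.993), MATK (0.992), a kinase that restrains SRC family kinases, and SMAP2 (0.992). For MYCL the closest 5 were CTDSP1 (0.993), ABHD14B (0.986), DHRS11 (0.986), RSAD1 (0.985) and TKFC (0.984). CTDSP1, a phosphatase, went from 83.2 ± 13.8 CPM to 20.1 ± 2.81 with As2S2 and 48.7 ± 2.02 with PMA. These correlations describe libraries of 3 groups and mostly repeat the group means, so any gene with the same order of groups scores highly.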

How the data were processed

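RNA from 9 MEG-01 libraries was measured by poly(A)-selected sequencing (NEBNext Ultra II kit, per the labels' protocols). The tools named per the submitters' processing notes are fastp 0.22.0 and DESeq2. The builds in those notes belong to zebrafish, and the organism label of 1 control sample is not human, but the deposited tables used here hold human Ensembl IDs. Aligner, counter, strand setting and annotation were not given in the sources used here. The authors deposited, for each agent against control, expected counts and TPM per library. The same deposited tables give a fold ratio, a log2 fold change and p-values from the authors' comparison. Symbols were found for 62666 of 63241 IDs; control values differed between the tables in 0 cases.

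Counts were rounded, filtered with filterByExpr (14592 genes), scaled by TMM and tested in 1 fit of all 9 libraries with edgeR 4.0.16 in R 4.3.3 (quasi-likelihood test, Benjamini-Hochberg, threshold 0.05; 95% intervals from its SE). Lists are described by counts and medians, with no set test. Exon overlaps came from GENCODE 29 annotation and effective lengths from deposited counts and TPM.

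The members and lists were chosen with earlier results of these data known. Named genes were the members, MYCN, MLXIP, MLXIPL, TXNIP and ARRDC4, genes among the 4 with the smallest adjusted p of a list in either comparison with control, and the 5 genes most correlated with MYC and MYCL (mean of at least 5 CPM); a few genes that this rule or the lists take in are not reported here. Alternatives were RLE scaling, DESeq2 1.42.0, limma-voom (limma 3.58.1), no filter, a stricter filter, only the groups compared, a replicate block, a threshold of 0.01, and libraries left out. Total-count scaling and limma on log2(TPM + 0.1) were chosen after seeing the data.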

Additional observations from a re-analysis of the deposited data

How the results depend on the processing

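MYC and MYCL kept their direction and their call in all 3 comparisons under every alternative run. Over members, 559 of the results under alternatives stayed on the same side of the threshold, 19 newly passed, 21 no longer passed and 1 that had passed (MXD4 with PMA) changed sign. Values that had not passed changed sign too: MNT (-0.11 to 0.12 over the alternatives) and MXI1 (-0.08 to 0.12) with As2S2, MXD3 with PMA (-0.19 to 0.40), and MXD1 (-0.15 to 0.21), MXD3 (-0.077 to 0.48) and MXD4 (-0.14 to 0.27) between the agents. Members called higher with As2S2 numbered 0, but 1 with no filter on low counts and 1 with the replicate block, 2 without the 2 outlying libraries (control replicate 2 and As2S2 replicate 1), and 0 to 2 with 1 library left out in turn. Members called lower with As2S2 numbered 3, and 5 under total-count scaling, which takes in MAX and MLX. Members called higher with PMA numbered 1, but 0 at the threshold of 0.01, under total-count scaling and on log2 TPM, 2 without the 2 outlying libraries, and 0 to 1 with 1 library left out. On log2 TPM MXD4 with PMA reversed to -0.0555. AURKA (-0.14), LDHA (-0.29) and HDAC1 (-0.32) with PMA and MCM7 between the agents (0.0469) reversed there too, and under total-count scaling LDHA (-0.0551) and HDAC1 (-0.11) did; by construction that scaling shifts all genes by 1 amount per library, and the cause on log2 TPM was not tested. The share of MYC in the members' TPM (66.4% in control, 46.4% with As2S2 and 41.3% with PMA) was 45.8% with As2S2 on CPM, and 25.7%, 12.4% and 11.4% in the same order when the other network genes entered the sum.

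The replicate numbers share nothing stated in the labels, and deviations of same-numbered libraries correlated at -0.0725 to 0.149, so the replicate block is not the main analysis; with it 3005 genes were higher and 2967 lower with As2S2, against 2962 and 2859. Counts limit MYCN, MLXIPL and MYCL most.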

Other observations

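The authors' deposited table gave log2 fold changes close to those above, and of the members in both comparisons with control only the call of MXD1 with As2S2 differed at a threshold of 0.05. For MXD1 with As2S2 the authors' deposited table has -0.252 with an adjusted p of 0.0614. For MXD4 with PMA the authors' deposited table has 0.358 with an adjusted p of 0.0181, and for MGA with As2S2 -0.275 with an adjusted p of 0.234. For MYC the authors' deposited table has -1.35 with As2S2 and -1.79 with PMA, and for MYCL -2.48 and -0.814.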
